A study of Mus musculus with 3 samples.

Results

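Splicing factors and spliceosome genes were examined on 3 microarrays of a mouse bone marrow population enriched for blood stem cells. The members were taken by symbol. They comprise the Srsf (SR protein), Sf3a and Sf3b, Hnrnp, Snrp, Snrnp and Prpf families, with U2af1, U2af2, Luc7l2 and Ddx41 added by name. Only probe sets annotated to a single gene were used, which gave 68 members with 87 probe sets, out of 19938 genes measured. Zrsr2 is also named by the rule and was not analysed here. All 3 arrays belong to 1 group, wild-type C57Bl/6 mice 6 to 10 weeks old. The cells were sorted from bone marrow as Lin-, c-Kit+, Sca-1+, CD150+, CD48- and CD41- (KLS SLAM cells), and no treatment or other genotype was measured. The labels do not say whether the arrays came from separate animals or from pools, so the spread between arrays may be technical.

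The spliceosome removes introns from nuclear pre-mRNA. U1 small nuclear ribonucleoprotein (snRNP) binds the 5′ splice site, the U2 auxiliary factor and U2 snRNP bind the 3′ splice site and the branch point, and the U4/U6.U5 tri-snRNP then joins and is rearranged into the catalytic centre, while SR proteins and hnRNPs steer which sites are used. In blood stem cells several of these genes are known as targets of recurrent mutation in human myelodysplasia, SF3B1, SRSF2 and U2AF1 being the best known.

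Almost all of the splicing genes gave signal in these cells. A gene was counted as above background when its log2 intensity exceeded the 95th percentile of the olfactory, vomeronasal and taste receptor genes (1231 genes) on each of the 3 arrays. This limit was 6.29, 5.98 and 5.77 log2 on arrays 1, 2 and 3. By this rule 64 of 68 splicing genes (94.1%) were above background, against 36.8% of all genes. A share of this kind was also found in other families with general cellular roles, with 56 of 60 cytosolic ribosomal protein genes, 44 of 48 proteasome subunit genes and 74 of 80 subunit genes of respiratory complexes I to V above the limit. The median splicing gene lay at 8.22, 8.33 and 8.42 log2 on arrays 1, 2 and 3, against 5.96, 5.95 and 5.94 log2 for all genes. Because probe sets differ in affinity, levels of different genes are not ranked here. Since the arrays measure RNA of a whole sorted population, fewer cells of a type and less RNA per cell cannot be told apart.

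**Figure D1:**
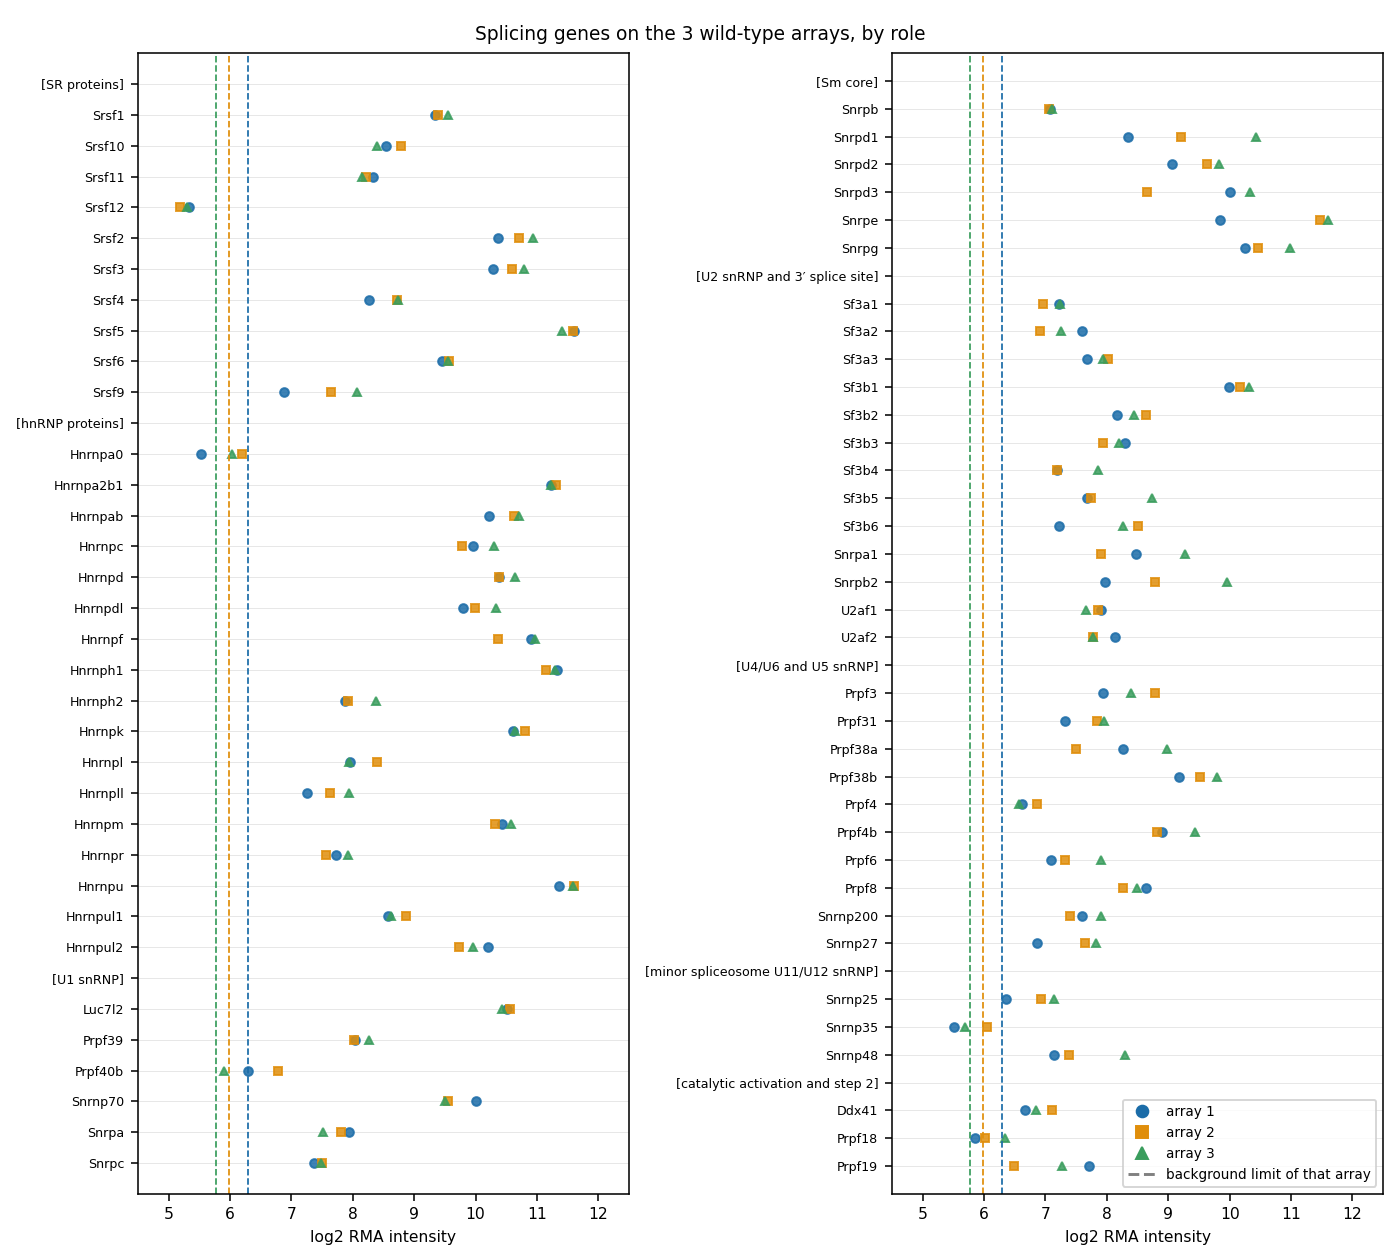
Log2 RMA intensity (x axis) of each of the 68 splicing genes, grouped by role, with 1 symbol per array and each array's background limit as a dashed line in the same colour. Hnrnpa0, Snrnp35, Prpf18 and Srsf12 are the 4 genes not above the limit on all arrays, and Snrpd1, Snrpb2, Snrpe and Snrpd3 have widely separated symbols.

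The gate genes gave a mixed check of the labelled cell type. Ly6a, the Sca-1 gene, was not among the gate genes measured. Kit, the c-Kit receptor, read 10.28, 9.92 and 9.85 log2 on arrays 1, 2 and 3, and Slamf1, which encodes CD150, read 6.41, 6.48 and 6.65 log2. Both were above the limit on all arrays. Cd48 exceeded the limit on array 3 alone, with 4.61, 5.62 and 6.14 log2, whereas Itga2b, the gene of CD41, was above it with 6.51, 6.36 and 6.24 log2. All 4 stem cell markers examined (Procr, Mecom, Hlf and Mllt3) were above the limit. So were 10 of 12 granulocyte, 3 of 4 megakaryocyte, 2 of 7 erythroid and 2 of 5 monocyte genes. The counts were 1 of 5 for B cell genes and 1 of 6 for T and NK cell genes. Of all genes 36.8% were above it, near the erythroid (28.6%) and monocyte (40%) shares. The summed intensity of the granulocyte genes was 9982, 16890 and 16120 on arrays 1, 2 and 3, lowest on array 1. Most of it came from S100a8, with 11.73, 12.31 and 12.20 log2, and S100a9, with 11.94, 12.57 and 12.61 log2. Singly 10 of 12 were lowest on array 1. Mpo was highest there, with 8.29, 7.53 and 7.88 log2, and Prtn3 was lowest on array 2, with 7.10, 6.60 and 7.32 log2. The stem cell genes summed to 2584, 3650 and 3035, also lowest on array 1, but singly only 2 of 4 were lowest there. Mecom was highest on array 1, with 8.34, 7.94 and 7.99 log2. Hlf was lowest on array 3, with 10.34, 10.83 and 10.29 log2. The B cell genes summed to 252, 288 and 724, highest on array 3. Most of the sum there came from the pre-B cell gene Vpreb1, which read 9.02 log2, against 5.81 and 6.38 log2 on arrays 1 and 2. Singly 3 of 5 B cell genes were highest on array 3, whereas Cd79a and Pax5 were lowest there, with 3.93 and 5.96 log2. The part of these genes in the differences between arrays described here was not tested.

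Of the genes mutated in myelodysplasia, all 7 measured were above background. Sf3b1, the U2 subunit that holds the branch point, read 9.99, 10.17 and 10.31 log2 on arrays 1, 2 and 3. Srsf2, an SR protein that binds exonic enhancers, read 10.36, 10.71 and 10.93 log2. U2af1, which recognises the AG dinucleotide of the 3′ splice site, read 7.90, 7.86 and 7.66 log2. The arrays lay within 0.57 log2 of each other for each of these genes. U2af2, the partner of U2af1 that binds the polypyrimidine tract, read 8.13, 7.77 and 7.78 log2. Luc7l2, a U1-associated factor in 5′ splice site choice, read 10.52, 10.56 and 10.43 log2. Ddx41, a DEAD-box helicase, read 6.66, 7.11 and 6.84 log2, its lowest value lying 0.37 log2 above the limit of array 1. Prpf8, the U5 protein at the centre of the spliceosome, read 8.64, 8.26 and 8.48 log2. The SDs of the 7 genes ran from 0.07 to 0.29 log2 (n = 3 arrays). Srsf2 had the SD of 0.29 log2, against a median of 0.28 log2 for genes of the same level, and the other 6 lay below the median of their level.

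Among the SR proteins, 9 of 10 were above background. Srsf1, the founding member of the family, read 9.34, 9.40 and 9.55 log2 on arrays 1, 2 and 3. Srsf3, a small SR protein that also serves mRNA export, averaged 10.29, 10.59 and 10.78 log2 over 3 probe sets that differed in direction between arrays. Srsf12, an SR-related protein, was under the limit on every array with 5.34, 5.18 and 5.30 log2. As averages over probe sets, Srsf9 was the SR gene with the widest range, reading 6.89, 7.65 and 8.08 log2. The other SR genes above background stayed within 0.57 log2 over the arrays on this measure, but single probe sets of Srsf3 and Srsf10 ranged more widely than their averages.

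The hnRNPs, which coat nascent transcripts and often block splice sites, showed no wide differences between arrays. Of 17 genes 16 were above background, and 0 of 17 had a range over 1 log2 between arrays, against 14.3% of genes of the same level (all genes within 0.25 log2 of a member's mean). Hnrnpa2b1 read 11.23, 11.31 and 11.24 log2 on arrays 1, 2 and 3, and Hnrnpab read 10.21, 10.63 and 10.71 log2. Hnrnpa0, an AU-rich element binding protein, was the hnRNP not above the limit on all arrays, with 5.53, 6.20 and 6.03 log2. It was under the limit on array 1 and above it on arrays 2 and 3. SDs in the group ran from 0.04 to 0.35 log2.

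The Sm core proteins form the ring that encircles the snRNAs of U1, U2, U4 and U5, and their median SD over the arrays, 0.64 log2, was the highest of the 8 role groups. All 6 measured genes were above background. Snrpe, the Sm E protein, read 9.84, 11.47 and 11.61 log2 on arrays 1, 2 and 3. Snrpd1, the Sm D1 protein, read 8.34, 9.20 and 10.44 log2. Array 1 was the lowest for both, and array 3 was 3.39-fold above array 1 for Snrpe and 4.28-fold for Snrpd1. Snrpd3, the Sm D3 protein, read 10.00, 8.66 and 10.33 log2, so here array 2 was the lowest. Snrpd2 read 9.05, 9.63 and 9.83 log2 and Snrpg read 10.25, 10.46 and 10.99 log2. Snrpb, which encodes the SmB proteins, was the steadiest of all 68 genes with 7.07, 7.06 and 7.11 log2 and an SD of 0.03 log2. All 6 genes were highest on array 3, while 62.0% of genes of the same level were. After cyclic loess 5 of 6 were higher on array 3 than on array 1, the exception being Snrpb with 7.10, 7.09 and 7.08 log2. The summed intensity of the 6 genes was 4154, 6158 and 8871 on arrays 1, 2 and 3.

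The U1 genes had a median SD of 0.18 log2 over the arrays. Snrpa, a U1 protein that binds a stem loop of the snRNA, read 7.94, 7.80 and 7.51 log2 on arrays 1, 2 and 3, Snrpc, a U1 protein at the 5′ splice site, read 7.38, 7.51 and 7.48 log2, and Snrnp70, the U1-70K protein, read 10.00, 9.55 and 9.50 log2. All 6 genes of the group were above background and 0 of 6 had a range over 1 log2, against 17.1% of genes of the same level. The difference from the Sm core was not tested. Prpf40b, named for its homology to a yeast U1 factor, was the member closest to the limit from above. It read 6.30, 6.78 and 5.90 log2, and its value on array 1 exceeded the limit there by 0.006 log2.

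U2 snRNP and 3′ splice site genes were above background in 13 of 13 cases, and 4 of the 13 ranged over more than 1 log2 (30.8%, against 21.1% of genes of the same level). Snrpb2, the U2 B″ protein, read 7.97, 8.78 and 9.96 log2 on arrays 1, 2 and 3, a 3.98-fold difference between arrays 3 and 1. Snrpa1, the U2 A′ protein that pairs with it, read 8.47, 7.90 and 9.27 log2. Sf3b6, the small subunit that contacts the branch point, read 7.22, 8.50 and 8.27 log2, and Sf3b5 read 7.68, 7.75 and 8.73 log2. Array 3 was the highest for 3 of these genes and array 2 for Sf3b6. Sf3a1, a subunit of the SF3a complex, read 7.21, 6.96 and 7.24 log2, and Sf3b4, which stabilises U2 near the branch point, averaged 7.19, 7.18 and 7.85 log2 over its probe sets.

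All 10 genes of the U4/U6 and U5 snRNPs were above background. Prpf3, a U4/U6 protein, read 7.94, 8.78 and 8.39 log2 on arrays 1, 2 and 3, and its partner Prpf4 read 6.62, 6.87 and 6.56 log2. Prpf6, which bridges the U5 and U4/U6 particles, read 7.09, 7.32 and 7.90 log2. Prpf38a, a factor needed for activation of the spliceosome, was the only gene of this group with a range over 1 log2, with 8.26, 7.49 and 8.98 log2. Array 2 was its lowest array.

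Genes of the U11/U12 particle, which belongs to the minor spliceosome for the rare U12-type introns, included a gene under the limit and one just over it. Snrnp35 read 5.51, 6.04 and 5.69 log2 on arrays 1, 2 and 3 and was above the limit on array 2 only. Snrnp25 read 6.36, 6.92 and 7.14 log2, with its value on array 1 exceeding the limit by 0.07 log2, and Snrnp48 read 7.14, 7.38 and 8.29 log2. All 3 were lowest on array 1, the array with the highest limit. Among the catalytic factors, Prpf18, which acts in the step that joins the exons, read 5.85, 6.01 and 6.34 log2 and was under the limit of array 1. Prpf19, a ubiquitin ligase that supports the active spliceosome, read 7.72, 6.49 and 7.27 log2.

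No splicing gene was called more variable between arrays than the trend of all genes after correction. Each gene's variance over the 3 arrays was set against the robust trend of variance on level (limma, one-sided F test), with Benjamini-Hochberg adjustment over all 19938 genes. The test called 0 of 68 members, against a background of 0% of all genes, and the smallest adjusted p among the members was 0.925 (Snrpe). The trend and its prior degrees of freedom were fitted to these same genes, and 3 arrays give little power. The lack of calls therefore does not show that the members were steady. Without adjustment 4 members had p under 0.05, namely Snrpe, Snrpd1, Snrpb2 and Snrpd3, or 5.88% against 5.1% of all genes and 3.36% of genes of the same level. A range over 1 log2 was found for 11 of 68 members (16.2%), against 10.5% of all genes, 13.4% of genes above background and 16.6% of genes of the same level. The median SD was 0.26 log2 for the members and 0.22 log2 for all genes, and the members' local median at matched level was 0.30 log2.

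**Figure D2:**
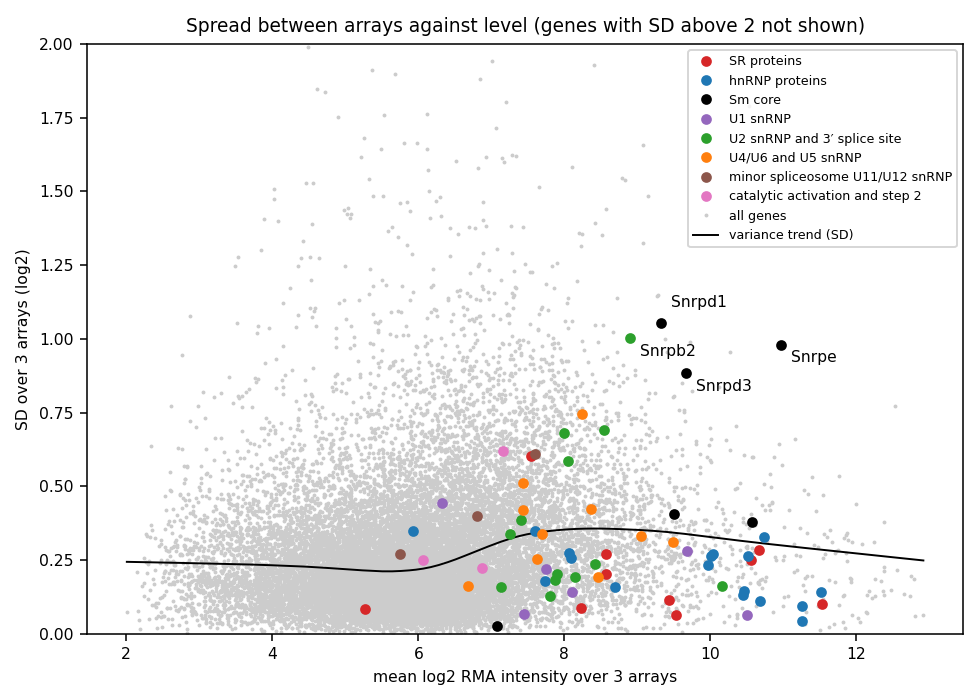
SD over the 3 arrays (y axis, log2) against mean log2 intensity (x axis) for all genes in grey and the 68 splicing genes coloured by role, with the variance trend as a line. Snrpd1, Snrpb2, Snrpe and Snrpd3 lie highest above the trend, with SDs of 1.05, 1.00, 0.98 and 0.88 log2, and none passed the adjusted test.

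Array 1 was the lowest of the 3 for 37 of 68 members (54.4%), against 34.1% of all genes and 49.4% of genes of the same level. Among members above background it was the lowest for 34 of 64, against 35.5% of all genes above background. The median difference of array 3 minus array 1 was 0.26 log2 for the members, −0.01 log2 for all genes and 0.29 log2 for genes of the same level. After quantile normalisation the members' median was 0.11 log2, against 0.07 log2 for all genes. After cyclic loess it was 0.07 log2, against 0.03 log2 for all genes. Without these steps the same median in the proteasome, respiratory complex and ribosomal protein genes was 0.45, 0.49 and 0.28 log2.

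The role groups differed in this measure. For the Sm core the median was 0.76 log2, which exceeded genes of the same level by a median of 0.36 log2, with 5 of 6 genes above their matched value. For the U1 group it was −0.25 log2, lower than genes of the same level by a median of 0.44 log2, with 0 of 6 genes above. One of the 6, Snrpc, lay 0.05 log2 below its matched value as an average of 3 probe sets, of which 2 were higher on array 3 than on array 1, by 0.55 and 0.28 log2. The U11/U12 group had a median of 0.78 log2, above genes of the same level by a median of 0.76 log2, with 3 of 3 genes above. The medians were 0.58 log2 for the U4/U6 and U5 group, 0.28 log2 for the U2 group and 0.20 log2 for the hnRNPs. They were 0.18 log2 for the catalytic group and 0.16 log2 for the SR proteins. Set against genes of the same level, the U2, hnRNP and SR groups differed by a median of −0.05, −0.10 and −0.06 log2. In them 5 of 13, 7 of 17 and 5 of 10 genes were above their matched value. The U4/U6 and U5 group was above by 0.20 log2 (8 of 10 genes) and the catalytic group by 0.15 log2 (2 of 3). After cyclic loess the U11/U12 group stood at 0.75 log2, the Sm core at 0.49 log2 and the U1 group at −0.36 log2. The same step gave 0.32 log2 for the U4/U6 and U5 group, 0.14 log2 for the catalytic group and 0.06 log2 for the U2 group. It gave 0.01 log2 for the SR proteins, and the hnRNPs changed sign to −0.04 log2. With the brightest probe set in place of the average, the Sm core stood at 0.55 log2 and the SR proteins at 0.05 log2. The medians of the other groups were then unchanged. These groups hold few genes measured on the same 3 arrays, so the values are a description with no test.

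**Figure D3:**
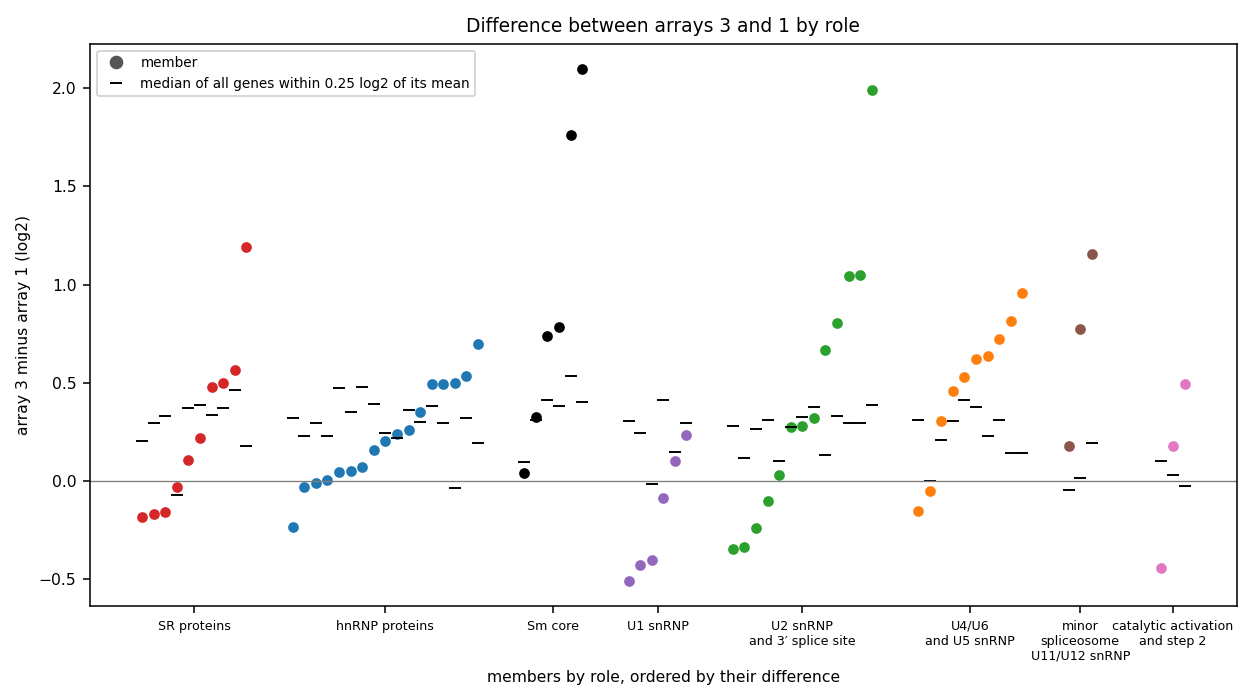
Difference of array 3 minus array 1 (y axis, log2) for each splicing gene, grouped by role, with a dash for the median of all genes within 0.25 log2 of its mean. The U11/U12 median is 0.78 log2, the Sm core median is 0.76 log2 and the U1 median is −0.25 log2.

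The promoters of 2 of the most variable members, Snrpb2 and Snrpe, and of Hnrnpa2b1, one of the steadiest, are shown as examples. Each runs from 250 bases before to 50 bases after the annotated start (RefSeq, GRCm38.p6), 5′ to 3′ on the gene's strand, with matches to any of 6 searched motifs in capitals. Snrpb2 lies at chr2:143062819-143063118 on the plus strand, Snrpe at chr1:133610231-133610530 on the minus strand and Hnrnpa2b1 at chr6:51469845-51470144 on the minus strand.
Snrpb2: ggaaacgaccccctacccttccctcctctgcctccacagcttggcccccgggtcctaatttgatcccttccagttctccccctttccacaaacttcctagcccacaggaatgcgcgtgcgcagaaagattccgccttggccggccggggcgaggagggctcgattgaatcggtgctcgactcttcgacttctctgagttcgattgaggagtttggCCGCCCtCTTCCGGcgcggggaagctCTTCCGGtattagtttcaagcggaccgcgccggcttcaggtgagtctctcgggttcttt
Snrpe: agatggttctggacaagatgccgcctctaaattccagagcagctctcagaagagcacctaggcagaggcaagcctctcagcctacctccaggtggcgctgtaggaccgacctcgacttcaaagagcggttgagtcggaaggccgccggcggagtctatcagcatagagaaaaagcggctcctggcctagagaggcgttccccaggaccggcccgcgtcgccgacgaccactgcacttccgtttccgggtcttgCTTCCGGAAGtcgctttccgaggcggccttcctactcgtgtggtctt
Hnrnpa2b1: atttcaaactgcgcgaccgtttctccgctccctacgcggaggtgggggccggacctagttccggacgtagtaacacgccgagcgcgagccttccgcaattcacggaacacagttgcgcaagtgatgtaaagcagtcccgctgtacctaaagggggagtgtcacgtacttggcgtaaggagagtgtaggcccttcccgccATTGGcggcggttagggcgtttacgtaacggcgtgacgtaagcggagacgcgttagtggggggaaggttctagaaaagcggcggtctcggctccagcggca
The Snrpb2 capitals are CCGCCC, the reverse complement of the Sp1 motif, and 2 copies of CTTCCGG, the reverse complement of the ETS motif. In Snrpe the run CTTCCGGAAG holds 2 overlapping ETS matches, one on each strand. In Hnrnpa2b1 the capitals are ATTGG, the reverse complement of the CCAAT box. ETS matches also occur in members with small spread, such as Srsf5 and Sf3a1, with SDs of 0.10 and 0.16 log2. Snrpd1 and Snrpb, the members with the largest and the smallest SD, have no promoter entry. A link between motifs and spread was not tested.

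The ETS core CCGGAAG occurred in a larger share of splicing gene promoters than of all promoters. Searched on both strands, it occurred in 33.3% of the members' 78 promoters, against 8.86% of all 32851 promoters of the same length. By gene it was found in 21 of 60 members with an entry (35.0%), against 12.9% of coding genes and 21.3% of genes above background. It was found in 7 of 10 U2 genes with an entry, in 5 of 10 U4/U6 and U5 genes, in 2 of 4 Sm genes and in 2 of 15 hnRNP genes. The other groups had it in 3 of 10 SR, 1 of 6 U1, 1 of 2 catalytic and 0 of 3 U11/U12 genes. The Sp1 motif GGGCGG was found in 70.0% of members, against 49.2% of coding genes and 68.1% of genes above background. CCAAT was found in 48.3% of members, against 42.3% of coding genes and 41.6% of genes above background. The YY1 motif AAGATGG occurred in 5% of members, against 7.18% of coding genes and 8.92% of genes above background. The NRF1 motif GCGCATGC occurred in 6.67% of members, against 3.93% of coding genes and 6.22% of genes above background. TATAAA occurred in 11.7% of members, which was below the 14.8% of coding genes and above the 8.8% of genes above background. The members' promoters had a median GC content of 60.0%, against 52.7% for all promoters and 61.0% for genes above background. A match is a stretch of letters, and no binding was measured. Hnrnpll, Hnrnpul2, Prpf18, Sf3b4, Sf3b5, Snrpb, Snrpd1 and U2af2 had no entry.

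Of the members, 11 had several probe sets, 30 in all. In 5 of them the means of the probe sets differed by over 1 log2, a gap in level that probe affinity alone can give, so the direction between arrays is the measure to compare. For Srsf3 the first probe set read 11.995, 11.81 and 11.74 log2 on arrays 1, 2 and 3, the second 11.46, 11.45 and 11.31 log2, and the third 7.40, 8.50 and 9.29 log2. The third was thus lowest on array 1 while the other two were highest there, and the gap between the extreme means was 3.45 log2. Srsf10, an SR protein that acts as a repressor in its dephosphorylated form, had a probe set at 9.90, 10.01 and 9.90 log2 and another at 7.19, 7.57 and 6.88 log2. The gaps for Snrpd2, Snrpg and Sf3b4 were 1.56, 1.20 and 1.10 log2. All 5 probe sets of Snrpd2 were higher on array 3 than on array 1, by 0.56 to 1.07 log2. Across the 11 genes, 7 had probe sets that all differed in the same direction between arrays 3 and 1. The exceptions were Hnrnpf, Hnrnpk, Snrpc and Srsf3.

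**Figure D4:**
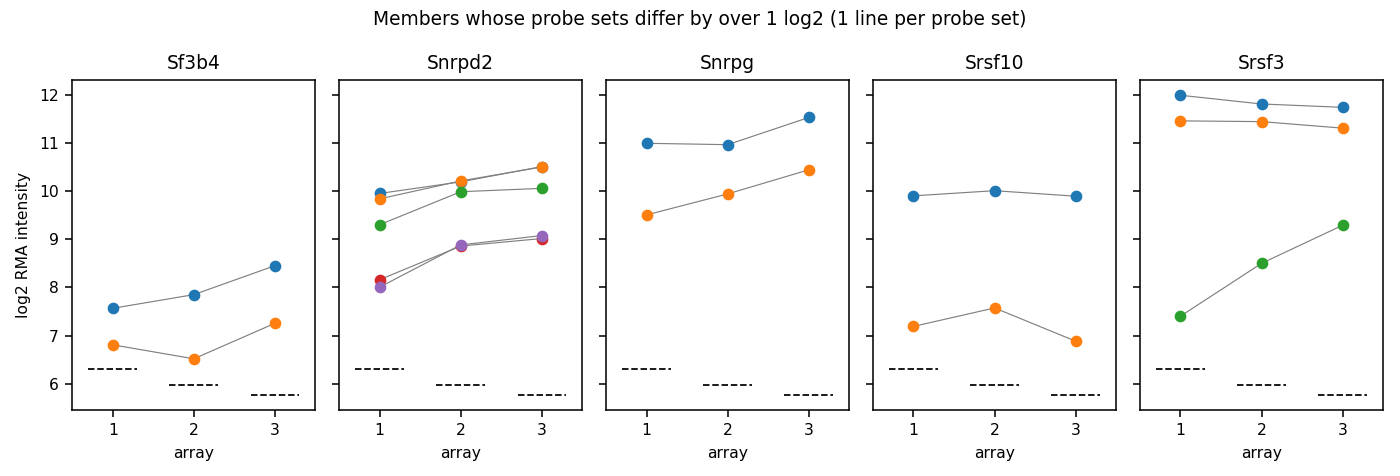
Log2 RMA intensity (y axis) on arrays 1 to 3 (x axis) for the 5 splicing genes whose probe sets differ by over 1 log2, with 1 line per probe set and each array's background limit as a dashed line. The means of the Srsf3 probe sets span 3.45 log2 and those of Srsf10 span 2.72 log2, and all lie above the limits.

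Other genes of the splicing pathway were taken from 8 lists, with 80 of 111 measured genes above background (72.1%), against 36.8% of all genes. That share of all genes is the comparison for each list below. All 7 exon junction complex genes were above it, among them Eif4a3, the helicase that clamps the complex to RNA, with 7.73, 8.28 and 9.04 log2 on arrays 1, 2 and 3, and Rbm8a with 9.77, 10.12 and 10.18 log2. Of the spliceosomal helicases 9 of 10 were above background, including Dhx8, which releases mRNA, with 6.90, 7.16 and 6.65 log2, and Dhx15, which takes the spliceosome apart, with 9.73, 9.50 and 10.10 log2. Dhx38, a helicase of the exon-joining step, was not, with 5.80, 5.86 and 6.36 log2.

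Of the LSm proteins, several of which cap the end of U6 RNA, 8 of 10 were above background. Lsm2 read 6.81, 6.40 and 7.74 log2 on arrays 1, 2 and 3. Lsm1, of the cytoplasmic decapping ring, read 5.19, 4.71 and 5.28 log2, and Lsm10, of the U7 particle, read 6.46, 5.95 and 6.61 log2. Both were not above the limit on all arrays, Lsm10 missing it on array 2. Of the factors around Prpf19 and of the exon-joining step 19 of 21 were above background, with Cdc5l at 8.23, 7.36 and 8.45 log2 and Plrg1 at 7.45, 7.05 and 7.80 log2. Ctnnbl1 read 6.22, 6.21 and 6.72 log2, and Ppih, a cyclophilin of the U4/U6 particle, read 7.61, 5.24 and 8.77 log2. Ppih was under the limit on array 2 alone.

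The kinases that phosphorylate SR proteins were above background in 5 of 6 cases, Srpk1 with 9.06, 9.09 and 9.08 log2 on arrays 1, 2 and 3 and Srpk2 with 6.97, 6.12 and 7.51 log2. Srpk3, known from muscle, read 5.41, 5.86 and 5.56 log2. Broadly expressed regulators were above it in 24 of 25 cases. Ptbp1, the polypyrimidine tract binding protein, read 7.24, 7.42 and 7.93 log2, Ptbp3 read 9.03, 10.34 and 9.38 log2, and Khsrp, the exception, read 6.12, 6.43 and 6.30 log2.

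Tissue-restricted regulators formed the contrasting list, with 1 of 18 above background, against 36.8% of all genes. Nova2, Celf5, Celf6, Elavl3 and Srrm3 missed the limit on array 1 alone, where the limit is highest. Rbfox1, a regulator of neurons and muscle, read 5.48, 5.41 and 5.04 log2 on arrays 1, 2 and 3, and Rbfox3, known as a neuronal marker, read 5.63, 5.53 and 5.47 log2. Khdrbs3, known from brain and testis, was the one above the limit, with 6.79, 7.40 and 6.95 log2. The snRNP assembly list, whose products load Sm rings onto snRNA, was above background in 7 of 14 cases (50%). This is not far from the 36.8% of all genes. Smn1 read 6.70, 5.90 and 6.31 log2, under the limit on array 2, and Gemin2 read 6.22, 6.51 and 6.60 log2, under it on array 1.

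**Figure D5:**
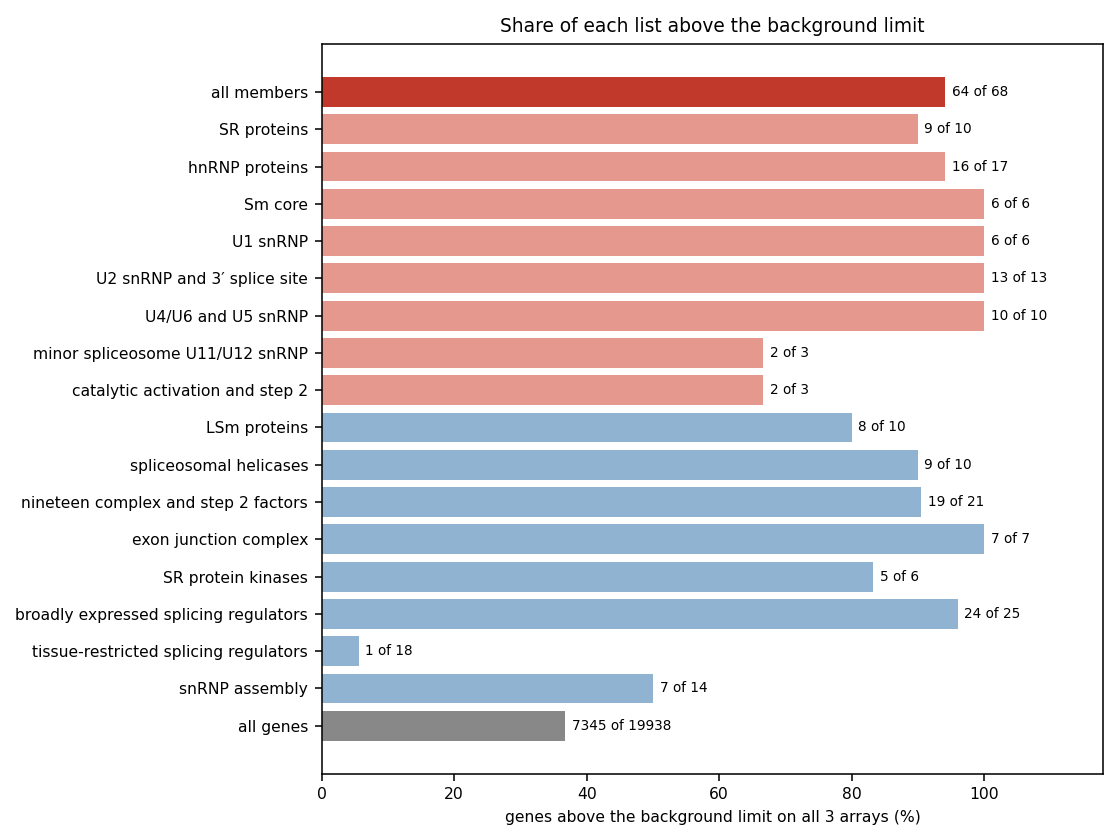
Share of genes above the background limit on all 3 arrays (x axis, percent) for the splicing genes and their role groups (red), the 8 lists of other splicing genes (blue) and all genes (grey), with the counts beside the bars. The members as a whole reach 94.1%, the tissue-restricted regulators 1 of 18, and all genes 36.8%.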

How the data were processed

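RNA of the sorted cells was, per the labels' protocols, purified on XS columns, amplified with the NuGEN Ovation system and labelled with biotin. Per the submitters' processing notes, the authors ran Affymetrix Expression Console with RMA, and the deposited values are linear intensities. Tool versions and a genome build are not given in the labels. RMA forces the arrays to like distributions and so hides differences in total RNA. Of 35554 probe sets, 21789 name 1 gene in GEO's platform annotation, 1621 name several and 12144 are not listed there. Log2 intensities were taken with no pseudocount, and the probe sets of a gene were averaged. The variance trend was fitted with limma 3.58.1 in R 4.3.3 (squeezeVar, robust trend). Each gene's unmoderated variance was divided by the trend and tested with a one-sided F test, at an adjusted p under 0.05. The test used 2 residual and 4.34 prior degrees of freedom. The code was tested on simulated data in which the planted spreads were far larger than those of the members. With 3 arrays, their number limits the precision.

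The members and gene lists were chosen with earlier results of these data known. Genes named were all of the myelodysplasia list, members not above the limit, the first 3 of each role group, those with discordant probe sets, the 5 with the smallest variance p, the 3 largest and smallest SDs, and of each pathway list the first 2 and any on the rarer side where these are at most 5. Prpf40b, Srsf9, Sf3b5, Sf3b6, Vpreb1, the other genes named for a probe set direction or a missing entry, and those in the closing observations were picked after their values were seen. Alternatives tried were other limits, the brightest probe set, quantile and cyclic loess normalisation, other variance trends, a filter on low values, and leaving out each array.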

Additional observations from a re-analysis of the deposited data

Results flagged for a closer look

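Probe sets annotated to several genes were left out of the gene values. Of these, 16 carry a symbol of the rule, and all 16 were above the background limit on all 3 arrays, with mean levels between 8.94 and 11.6 log2. These probe sets hold 5 symbols of the rule that are not among the 68 members, and their signal cannot be assigned to a single gene.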

How the results depend on the processing

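The count of splicing genes above background was 64, against 36.8% of all genes. It was 55 with the 99th percentile of the receptor genes, against 17.4% of all genes, and 64 with the 90th, against 50.5%. With keratin-associated and beta-defensin genes as the background it was 47, against 12.3%. The brightest probe set gave 63, against 37.3%, and lost Prpf40b. Quantile and cyclic loess normalisation gave 64, against 36.9% and 37%. Leaving out 1 array gave 64 to 66, against 37% to 46.9% of all genes. For the pathway lists (80) the keratin-associated and beta-defensin background gave 49, a drop of more than 1.5 times made by its higher limits. The other settings gave 58 to 93, and the shares of all genes above apply to each setting here too. The variance test called 0 members under all its alternatives, with 3 to 7 members at an unadjusted p under 0.05. The smallest adjusted p-values (F test with the limma prior) were 0.698 to 0.976. The median SD of the members was 0.18 to 0.27 log2. The brightest probe set moved the mean level of 7 members by more than their SD. No paired analysis was possible because the series has 1 group. With 3 arrays, small differences between arrays lie within the usual spread at these levels, and genes near the limit depend on where it is set.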

Other observations

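Of the 111 pathway genes, 5 had an unadjusted variance p under 0.05 (4.5%, against 5.1% of all genes). None passed the adjusted test (F test with the limma prior). The share is near the background, and the values are given as a description. Gemin4, a component of the SMN complex, read 6.04, 8.12 and 7.72 log2 on arrays 1, 2 and 3, so it was under the limit on array 1 alone. Coil, the scaffold of the Cajal body where snRNPs mature, read 6.01, 4.93 and 4.80 log2 and was under the limit on every array. Bcas2 read 7.38, 6.76 and 8.77 log2 and Bud31 read 7.51, 7.46 and 9.08 log2, both highest on array 3. Ppih had the smallest adjusted p of the 5, 0.831.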
